A study of Homo sapiens with 4 samples.

Results

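RNA polymerases I, II and III are the multisubunit enzymes that transcribe the nuclear genome, and the 34 genes described here are those whose symbol in the deposited table begins with POLR1, POLR2 or POLR3 followed by the letter of the subunit and at most 1 further digit. They were taken by their symbols from a table of 38972 rows. Of the 34 genes, 6 encode subunits of polymerase I, 10 subunits of polymerase II or close copies and partners of them, 10 subunits of polymerase III, 2 subunits shared by polymerases I and III, and 5 subunits shared by all polymerases of this family. The last, POLR2J4, is annotated as noncoding. All 34 reached a mean of at least 1 TPM (a gene's share of a library's transcripts, corrected for length and scaled to a common total) and were tested.

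The libraries came from HEK293T, an established human embryonic kidney cell line that carries viral oncogenes. The control group, with 2 libraries, overexpressed the epitope tag Flag, and the other group, also with 2, overexpressed RNase H1, an enzyme that cuts RNA where it is paired with DNA. R-loops are the subject of the series, and they form where an RNA pairs with one strand of the DNA behind a transcribing polymerase. All groups share the cell line and the library kit, an mRNA kit, and neither the expression vector, the duration of overexpression nor separate cultures are named in the labels. P-values therefore measure the spread between these libraries, which may be technical. In such bulk RNA, fewer cells that express a gene and less of its RNA per cell cannot be told apart.

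Polymerase I makes the large ribosomal RNA precursor, and polymerase II makes messenger RNA and many noncoding RNAs. Polymerase III makes transfer RNA, the smallest ribosomal RNA and other short RNAs. Each polymerase has a pair of large catalytic subunits, an assembly pair at its base and a stalk that holds the emerging RNA. Each also has a set of small subunits, of which some are common to all. Polymerases I and III carry additional built-in subunits that resemble initiation factors which polymerase II recruits from outside. The genes for all of these subunits are themselves transcribed by polymerase II.

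RNASEH1, the gene of the overexpressed enzyme, stood at 32.1 and 32.8 TPM with Flag and at 29.9 and 29.7 TPM in the libraries labelled RNase H1 (log2 fold change -0.12 ± 0.06, SE, limma adjusted p = 0.260). It was therefore not raised where the label says it was overexpressed. Fold changes are given as RNase H1 over Flag by these labels, and a change made by a transgene that the table does not count under this symbol was not tested. All 8 markers of the HEK293 line reached a mean of 1 TPM, but they were not constant between groups. IRS4 stood at 217 and 218.0 TPM with Flag and at 107 and 99.9 TPM with RNase H1, while PAX2 reached at most 1.86 TPM. The sum of the 8 was 1265 to 1285 TPM with Flag and 1207 to 1230 TPM with RNase H1. Markers of other cells lay below a mean of 1 TPM for 3 of 5 blood, 4 of 5 fibroblast, 4 of 4 endothelial, 4 of 6 epithelial and 3 of 4 hepatocyte genes, with HBB, KRT7 and TTR at 0 throughout. The hepatocyte sum was 0.73 to 1.24 TPM with Flag and 2.23 to 2.59 TPM with RNase H1, and the part of any marker list in the results was not tested. TPM keeps no read depth, so the depth behind each value is unknown.

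Some of these genes cannot be read apart in short reads. Of the 34, 9 shared more than 10% of the 50-base stretches of their longest GENCODE transcript with another gene on either strand. The POLR2J copies on chromosome 7 are the clearest case, with 97.5% of such stretches shared in POLR2J2, 93.7% in POLR2J3, 34.2% in POLR2J4 and 33.7% in POLR2J. An unbroken run of 158 bases in the 351-base coding sequence of POLR2J (chr7:102474365-102474522, minus strand, GRCh38) recurs in the transcripts of POLR2J2, POLR2J3 and POLR2J4. Its first 60 bases (chr7:102474463-102474522) are shown because reads from them fit all 4 genes equally.

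POLR2J, shared with POLR2J2, POLR2J3 and POLR2J4: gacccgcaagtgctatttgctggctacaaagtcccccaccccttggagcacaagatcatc

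GENCODE release 29 lists 2 genes under the symbol POLR2J3 and also 2 under POLR2J4. POLR2J3, but not POLR2J4, is among the 15 rows of the table whose values have more than 2 decimals, as the 1 member there. Values of the 4 POLR2J rows are uncertain for these reasons. POLR2M shared 31.7% of its stretches, mostly with the overlapping gene GCOM1 on the same strand. POLR1G shared 50.5%, mostly with ERCC1 on the opposite strand. POLR1H shared 23.5%, mostly with ZNRD1ASP on the opposite strand. POLR2I shared 69.7%, also mostly with an opposite-strand transcript. Whether reads were counted by strand is not given in the sources used here.

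**Figure D1:**
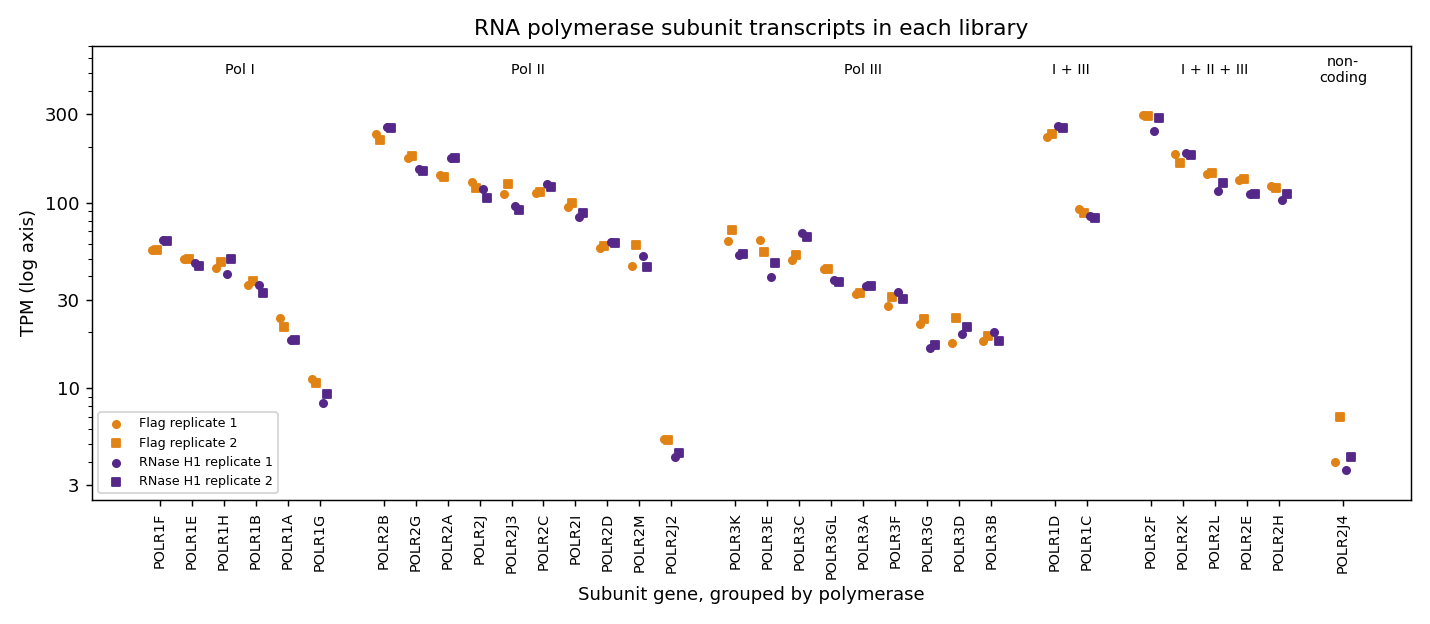
TPM of 33 of the subunit genes on a log axis, with 1 point per library, Flag in orange and RNase H1 in purple, and genes grouped by polymerase and ordered by their mean with Flag. Subunits shared by all polymerases lie above 100 TPM, while those of polymerases I and III lie mostly between 10 and 70 TPM.

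Levels differed more between subunits than between conditions, as the plot of TPM by library shows. The median level over the 4 libraries was 40.7 TPM for the polymerase I genes, 32.2 TPM for polymerase III, 113 TPM for polymerase II and 133 TPM for the subunits shared by all. POLR2F, a shared subunit, had the highest mean at 280.3 TPM, followed by POLR1D at 244 and POLR2B at 240.1 TPM. The libraries of POLR1D and POLR2B overlapped, so their order is not resolved. At the lower end stood POLR1G at 9.87, POLR2J2 at 4.83 and POLR2J4 at 4.72 TPM, of which the last 2 also overlapped. The total over the polymerase I genes was 220 and 223 TPM with Flag and 214 and 218 TPM with RNase H1, and over the polymerase III genes 370 and 383 TPM against 349 and 351 TPM. Neither pair of totals overlapped between groups. The polymerase II total, at 1107 and 1118 TPM against 1124 and 1089 TPM, did overlap. The total of the 5 fully shared subunits was lower, at 881 and 857 TPM with Flag and 759 and 816 TPM with RNase H1.

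Between the groups, 8 of the 34 genes passed the test and no change was large. POLR2A and POLR3C rose, and POLR2E, POLR2G, POLR2J3, POLR3G and POLR3K were among the 6 that fell (limma adjusted p under 0.05). The 8 calls are 23.5% of the members, against 11.8% of the 15651 tested genes. The share called higher was 5.88%, close to the background of 6.30%. The share called lower was 17.6%, against a background of 5.54%. Among genes of at least 10 TPM, where 31 of the members lie, 7.62% of all tested genes and 19.4% of the members were called lower. The groups did not overlap for 8 genes that were higher (23.5%, background 31.3%) and 18 that were lower (52.9%, background 29.4%). The median log2 fold change was -0.13 over the members and 0.00 over all tested genes. All 8 calls were lost when any 1 library was left out (limma adjusted p from 0.0938 for POLR2A to 0.206 for POLR3K), without the filter on low values and without the intensity trend in the variance. In all 15 alternative analyses the 7 named genes kept their sign, with an unadjusted limma p of at most 0.0405.

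**Figure D2:**
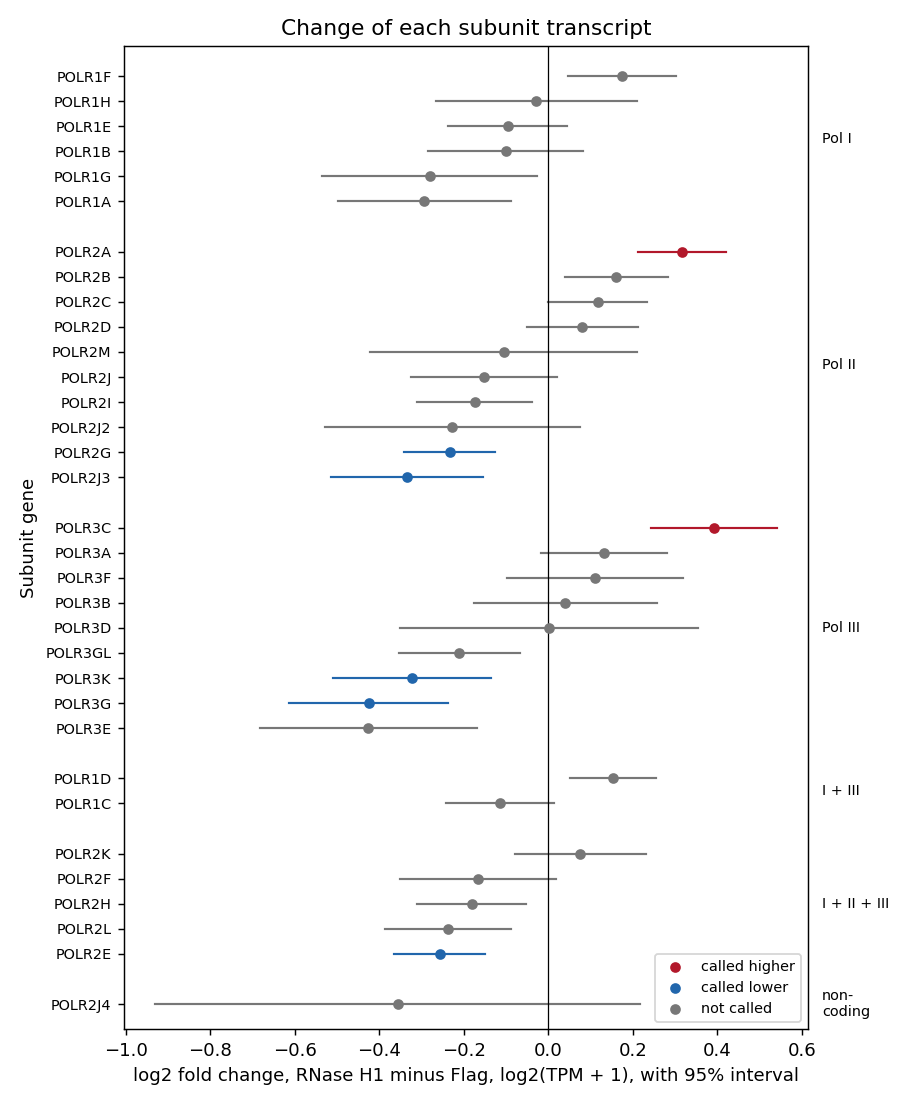
Log2 fold change of 33 of the 34 genes with its 95% interval from the limma model, grouped by polymerase and ordered by size, on the log2(TPM + 1) scale. Each polymerase-specific group holds genes on both sides of 0, from -0.43 for POLR3E and POLR3G to 0.39 for POLR3C.

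Polymerase I had 0 of 6 genes called by limma (11.8% over all tested genes), and 5 had negative fold changes. An unadjusted limma p under 0.05 was reached by 3 of the 6, against 4906 of the 15651 tested genes. POLR1A, its largest catalytic subunit, stood at 23.8 and 21.4 TPM with Flag and at 18.3 and 18.2 TPM with RNase H1. Both RNase H1 libraries lay below both Flag libraries, but the difference of -0.29 ± 0.08 (log2, SE) missed the threshold (limma adjusted p = 0.0732). POLR1B, the second catalytic subunit, overlapped between groups, with a fold change of -0.10 ± 0.08. POLR1G and POLR1E form a built-in pair of initiation-factor-like subunits. POLR1G stood at 11.2 and 10.7 TPM against 8.31 and 9.33 TPM (-0.28 ± 0.10, adjusted p = 0.129), and POLR1E had a fold change of -0.10 ± 0.06 without passing. POLR1F, the stalk subunit that contacts the initiation factor RRN3, was the exception in sign, at 55.4 and 55.6 TPM with Flag and 63.0 and 62.5 TPM with RNase H1. Its fold change of 0.17 ± 0.05 did not pass (adjusted p = 0.0823). POLR1H, which helps the enzyme cut back its RNA, overlapped between groups at -0.03 ± 0.10, with a 95% interval from -0.27 to 0.21.

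The assembly pair that polymerases I and III share was split in sign. POLR1D stood at 227 and 235 TPM with Flag and at 260.4 and 254 TPM with RNase H1 (log2 0.15 ± 0.04, adjusted p = 0.0677). Its partner POLR1C stood at 92.9 and 88.3 TPM against 84.4 and 82.9 TPM (-0.11 ± 0.05, adjusted p = 0.198). Neither group pair overlapped, and neither gene passed.

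Of the 10 polymerase II genes 4 had positive and 6 negative fold changes, with 1 called higher and 2 called lower. The background over all tested genes was 6.30% called higher and 5.54% called lower. POLR2A, on chromosome 17 (chr17:7484366-7514616, plus strand, GRCh38), encodes the largest subunit, whose repeated carboxy-terminal tail is phosphorylated during transcription. It stood at 141 and 138 TPM with Flag and at 174 and 173 TPM with RNase H1, a rise of 24.7% (log2 0.32 ± 0.04, 95% interval 0.21 to 0.42, adjusted p = 0.0156). Both RNase H1 libraries lay above both Flag libraries, by far more than replicates differed. POLR2B, the second catalytic subunit, had 235 and 218 TPM against 256 and 251 TPM and did not pass (0.16 ± 0.05, adjusted p = 0.0876). POLR2C, of the assembly pair, and POLR2D, of the stalk, had fold changes of 0.12 ± 0.05 and 0.08 ± 0.05 without overlap between groups, and neither passed.

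POLR2G (chr11:62761544-62766710, plus strand), the stalk partner of POLR2D, fell from 173 and 178 TPM to 151 and 147 TPM (log2 -0.23 ± 0.04, adjusted p = 0.0297). Between the stalk partners the signs were thus opposite, although the difference between them was not tested. In each library the ratio of POLR2A to POLR2G was 0.815 and 0.772 with Flag and 1.15 and 1.17 with RNase H1. This ratio restates the opposite changes of both genes and adds no separate result. POLR2I, a small subunit of transcript fidelity, had 94.9 and 99.3 TPM against 83.4 and 88.5 TPM and did not pass (-0.17 ± 0.06, adjusted p = 0.0939). POLR2J, the assembly partner of POLR2C, had -0.15 ± 0.07 and did not pass. POLR2J3 (chr7:102537918-102572653, minus strand) fell from 111 and 127 TPM to 96.5 and 91.5 TPM (-0.33 ± 0.07, adjusted p = 0.0404), a call that missed the threshold after correction for GC content and length (-0.30, adjusted p = 0.0502) and that can rest on reads shared by several copies. POLR2J2 and the noncoding POLR2J4, at means of 4.83 and 4.72 TPM, had -0.23 ± 0.12 and -0.36 ± 0.24 and did not pass. POLR2M, a protein that binds polymerase II and holds back initiation, had overlapping groups at -0.11 ± 0.13.

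Polymerase III held 4 of the 8 calls among its 10 genes, with 1 higher and 3 lower. CRCP, a further polymerase III subunit gene described below, is not among the 10 because of its symbol. Over all tested genes 6.30% were called higher and 5.54% lower. POLR3C and POLR3G lie in 1 subcomplex and changed in opposite directions. POLR3C, POLR3F and either POLR3G or POLR3GL form the trimer with which polymerase III opens its promoters. POLR3C (chr1:145824088-145842505, plus strand) rose from 49.1 and 52.5 TPM to 68.3 and 65.5 TPM, by 31.8% (log2 0.39 ± 0.06, 95% interval 0.24 to 0.54, adjusted p = 0.0204). POLR3G (chr5:90471748-90514553, plus strand), the form known from stem cells and tumours, fell from 22.3 and 23.5 TPM to 16.5 and 17.1 TPM (-0.43 ± 0.08, 95% interval -0.61 to -0.24, adjusted p = 0.0276). POLR3GL, the form found in most differentiated cells, had 44.0 and 44.0 TPM against 38.4 and 37.4 TPM and did not pass (-0.21 ± 0.06, adjusted p = 0.0697). POLR3F overlapped between groups at 0.11 ± 0.09.

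Ratios of POLR3G to POLR3C and to POLR3GL did not overlap between the groups, and ratios with POLR3F were not computed. The ratio of POLR3G to POLR3C was 0.454 and 0.448 with Flag and 0.242 and 0.261 with RNase H1. The ratio of POLR3G to POLR3GL was 0.506 and 0.534 with Flag and 0.430 and 0.457 with RNase H1. With 2 libraries per group these ratios are given as values without a test. The ratio to POLR3C restates the fall of POLR3G and the rise of POLR3C in the same libraries, and adds no separate result.

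POLR3K (chr16:46407-53628, minus strand), which lets the enzyme cut back and release its RNA, fell from 61.8 and 70.9 TPM to 52.4 and 53.0 TPM (-0.32 ± 0.08, adjusted p = 0.0483). POLR3E, which pairs with POLR3D in an initiation-factor-like dimer, stood at 63.0 and 54.4 TPM with Flag and at 39.9 and 47.1 TPM with RNase H1. Its fold change was as low as that of POLR3G, but with its wider spread it missed the threshold (-0.43 ± 0.10, adjusted p = 0.0519). POLR3D had overlapping groups and a fold change of 0.00 ± 0.14, with an interval from -0.35 to 0.35, and its sign changed with the scaling. The catalytic subunits POLR3A and POLR3B had fold changes of 0.13 ± 0.06 and 0.04 ± 0.09 and did not pass.

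Of the 5 subunits that all polymerases share, 4 had negative fold changes without overlap between groups. Over all tested genes 29.4% were lower without overlap. POLR2E (chr19:1086579-1095380, minus strand) fell from 133 and 135 TPM to 112 and 111 TPM, by 16.4% (log2 -0.26 ± 0.04, 95% interval -0.36 to -0.15, adjusted p = 0.0246). POLR2L stood at 143 and 144 TPM with Flag and at 115 and 128 TPM with RNase H1 (-0.24 ± 0.06, adjusted p = 0.0567), and POLR2H at 124 and 120.1 TPM against 104 and 111 TPM (-0.18 ± 0.05, adjusted p = 0.0770). POLR2F had 298 and 295 TPM against 243 and 286 TPM, so that 1 RNase H1 library lay near the Flag libraries and the other well below (-0.17 ± 0.08, adjusted p = 0.193). POLR2K, the remaining small subunit, overlapped between groups at 0.08 ± 0.06. The median of the 5 fold changes was -0.18, against -0.10 for polymerase I, -0.13 for polymerase II, -0.11 for polymerase III and 0.02 for the pair shared by I and III. The ranges of the classes overlapped, and no difference between classes was tested.

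**Figure D3:**
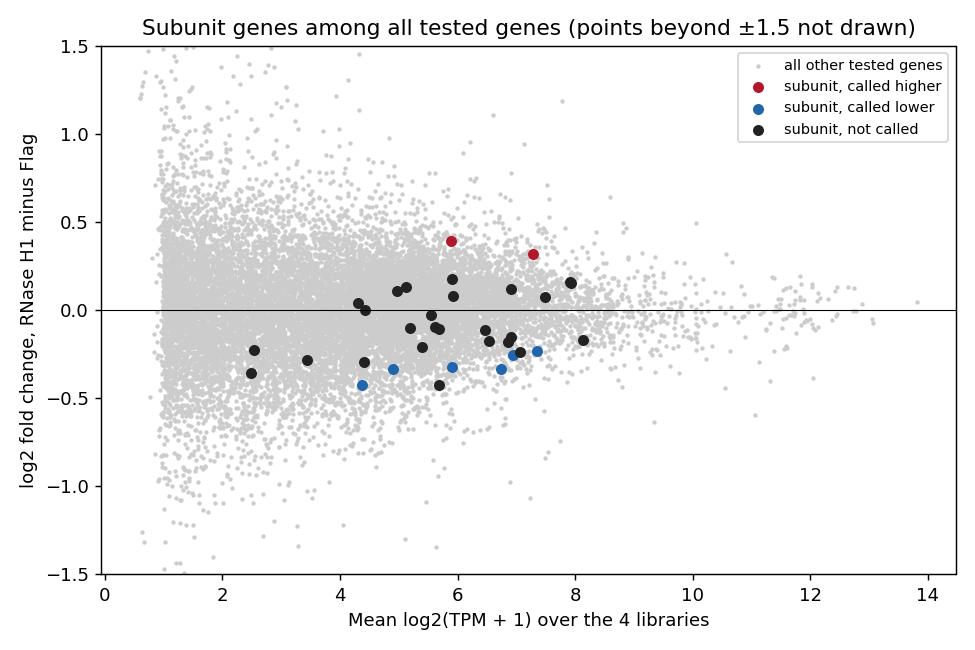
Log2 fold change against mean log2(TPM + 1) for all tested genes (grey) and the 34 subunit genes (coloured by call), with genes beyond 1.5 in either direction not drawn. The subunit genes lie within the cloud of all genes, none beyond 0.43 in size.

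GC content moved with the fold changes across members. Over the 34 genes the correlation between GC content of the longest transcript and log2 fold change was -0.35 (Pearson) and -0.43 (Spearman), given as a description, since the genes share the same 4 libraries. The correlation with log10 transcript length was 0.11 and that with log10 mean TPM was 0.32 (Pearson). The named members that fell spanned 34.3% (POLR3G) to 59.4% (POLR2E) GC, and those called higher 48.5% (POLR3C) and 56.1% (POLR2A). After GC and length correction POLR2A had a log2 fold change of 0.39, POLR3C of 0.38, POLR3G of -0.53, POLR3K of -0.36, POLR2G of -0.23 and POLR2E of -0.21, and these 6 calls held.

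Promoter windows from RefSeq (GRCh38.p14), reaching from 250 bases before to 50 bases after the first listed start, were matched by symbol for 24 of the 34 genes. The stretches just upstream of POLR2A, which rose, and POLR2E, which fell, are shown. For POLR3C and POLR3K, also called and matched, no such stretch is shown, because 240 and 250 of their 250 upstream bases are annotated as exon. Bases annotated as an exon of any gene were left out of the POLR2A and POLR2E stretches, and capitals mark GC boxes (GGGCGG on either strand).

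POLR2A, chr17:7484264-7484365, plus strand: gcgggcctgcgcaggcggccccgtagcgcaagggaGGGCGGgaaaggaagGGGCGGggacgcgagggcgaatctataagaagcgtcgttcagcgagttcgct

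POLR2E, chr19:1095381-1095500, minus strand: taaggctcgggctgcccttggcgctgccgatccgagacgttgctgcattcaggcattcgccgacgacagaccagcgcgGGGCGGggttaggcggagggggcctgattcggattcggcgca

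Both stretches are GC-rich, at 68.6% and 67.5% GC, and hold 2 and 1 GC boxes. Over the full windows a GC box was found in 16 of the 24 member promoters (66.7%) and in 44.6% of 27305 promoters of all genes. Those 27305 promoters were not limited to genes expressed here, as the members were. Shares among expressed genes were not computed, so no motif share can be called particular to the members. The ETS motif CCGGAAG was found in 9 member promoters (37.5%, against 10.7% of all), CCAAT in 5 (20.8%, against 35.7%) and TATAAA in 1 (4.17%, against 12.0%), each searched on both strands. The E-box CACGTG, the motif bound by MYC and related factors, was found in 4 (16.7%, against 7.43% of all). MYC itself fell from 80.01 and 77.1 TPM to 31.3 and 29.4 TPM (log2 -1.34 ± 0.06, limma adjusted p = 0.00223). The E-boxes of these 4 promoters, in capitals, are shown with 10 bases on each side, to give each match its surroundings. Here bases annotated as exon were not left out.

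POLR1G, chr19:45406622-45406647, plus strand: cctttggatcCACGTGgtctgcaacc

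POLR3A, chr10:78029535-78029560, minus strand: aggaagcggaCACGTGggacactcta

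POLR3C, chr1:145823994-145824019, plus strand: ccgcgtcggtCACGTGagttggccag

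POLR3E, chr16:22297398-22297423, plus strand: cgctccccccCACGTGtccgccggag

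Of these genes POLR3C was called higher, while POLR3A, POLR1G and POLR3E were not called, with fold changes of 0.13, -0.28 and -0.43. A match describes letters in a window and shows no binding.

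**Figure D4:**
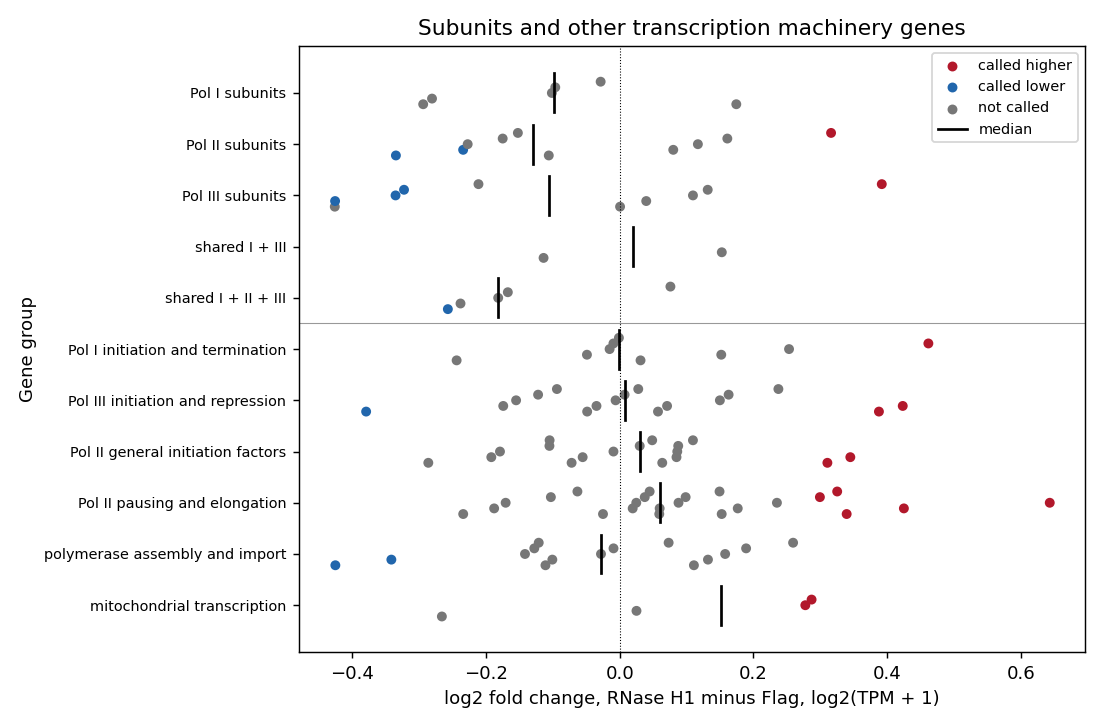
Log2 fold change of each subunit gene by class (above the line) and of 85 other transcription machinery genes in 6 lists (below), coloured by call, with a bar at each group's median. The medians of all 6 lists lie between -0.03 and 0.15, and each list holds genes on both sides of 0.

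A set of 85 other genes of the transcription machinery, all tested, includes the polymerase III subunit gene CRCP. Of the 85, 12 were called higher (14.1%, background 6.30%), 3 lower (3.53%, background 5.54%) and 70 neither, with a median log2 fold change of 0.03. As for the subunits, all of these calls were lost when any 1 library was left out. Among 9 factors of polymerase I initiation and termination, 1 rose and 0 fell. The riser was RRN3, which brings polymerase I to its promoter through POLR1F, from 64.3 and 64.7 TPM to 88.7 and 89.7 TPM (0.46 ± 0.05, adjusted p = 0.00990). TAF1C and TTF1, of promoter selection and termination, had -0.24 ± 0.08 and 0.15 ± 0.07 and did not pass.

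In a list of 17 polymerase III genes, made up of initiation and repression factors and the subunit gene CRCP, 2 rose and 1 fell. The background over all tested genes was 6.30% called higher and 5.54% called lower. GTF3C4, a subunit of the factor that binds tRNA gene promoters, rose by 0.42 ± 0.06 (adjusted p = 0.0156). GTF3A, the factor specific to genes of the smallest ribosomal RNA, fell from 113 and 127 TPM to 91.3 and 92.6 TPM (-0.38 ± 0.07, adjusted p = 0.0255). CRCP encodes a stalk subunit of polymerase III and lies outside the members only because of its symbol. It rose from 25.7 and 25.8 TPM to 34.7 and 33.3 TPM (0.39 ± 0.07, adjusted p = 0.0243).

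Of 17 general initiation factors 2 rose, GTF2B by 0.34 ± 0.06 and GTF2H1 by 0.31 ± 0.06, and 0 fell. For this list and the next, the background was 6.30% called higher and 5.54% called lower. The call of GTF2H1 was lost after GC and length correction (0.21, adjusted p = 0.0567), and GTF2H5 did not pass (-0.18 ± 0.08). Of 23 pausing and elongation genes 5 rose and 0 fell. An unadjusted limma p under 0.05 was reached by 9 of the 23, against 4906 of the 15651 tested genes. Those 9 include RTF1, NELFE and NELFB with negative fold changes of -0.23, -0.17 and -0.19 (adjusted p = 0.0544, 0.0996 and 0.113), named after their values were seen. Among the 5 that rose, AFF4, the scaffold of the super elongation complex, rose from 60.8 and 62.0 TPM to 97.8 and 95.1 TPM (0.64 ± 0.05, adjusted p = 0.00634), and CCNT1, the cyclin of the pause-release kinase, by 0.42 ± 0.06 (adjusted p = 0.0156). CTR9, a subunit of the PAF1 elongation complex, rose by 0.33 ± 0.06.

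Among 15 genes that assemble and import polymerases, 0 rose (background 6.30%) and 2 fell (background 5.54%). An unadjusted limma p under 0.05 was reached by 7 of the 15, against 4906 of the 15651 tested genes. PFDN6, a prefoldin subunit, fell from 173 and 169.9 TPM to 127 and 128 TPM (-0.43 ± 0.04, adjusted p = 0.00903), and RUVBL1, an ATPase of the assembly chaperone, by 0.34 ± 0.04 on the log2 scale (adjusted p = 0.0145). PDRG1, another prefoldin-like protein, had 0.26 ± 0.07 and did not pass (adjusted p = 0.0553), though it was called at a minimum mean of 5 TPM (adjusted p = 0.0350) and with the replicate block (0.0473). For comparison with the nuclear enzymes, the single-subunit mitochondrial polymerase POLRMT stood at 49.96 and 65.9 TPM against 45.9 and 49.2 TPM, without overlap but with a wide spread (-0.27 ± 0.13, adjusted p = 0.217), while TFAM and TEFM, its initiation and elongation factors, rose by 0.28 ± 0.05 and 0.29 ± 0.06. After GC and length correction the call of TEFM was lost (0.19, adjusted p = 0.0869), and that of TFAM was lost when the replicate block was added to it (0.22, adjusted p = 0.0525).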

How the data were processed

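The authors deposited 1 table of TPM with a column per library, 2 libraries per group. STAR and the hg38 build were used, per the submitters' processing notes. For versions, the quantification program, the annotation release and strand use, nothing is stated in the labels. Total RNA was extracted with TRIzol and made into libraries with an mRNA kit, per the labels' protocols. The 15651 genes whose mean reached 1 TPM were tested on log2(TPM + 1) with limma 3.58.1 in R 4.3.3, with a group term and an intensity trend. Tests were two-sided, Benjamini-Hochberg adjustment covered every tested gene, and calls needed an adjusted p below 0.05. Fold changes are differences of log2(TPM + 1), which understates changes of low genes, and ± is the standard error of the model. Gene models, GC content and lengths came from GENCODE release 29 on GRCh38, matched for 97.9% of tested genes. Figures were drawn with matplotlib 3.10.9. From each list of other machinery genes the 3 with the smallest p are named. The members and lists were chosen with earlier results of these data known. Alternatives were other pseudocounts (0.1 and 5), filters, normalizations and variance models, GC and length correction (splines with 4 degrees of freedom on the deviations of each library), the replicate number as a block, and leaving out each library. The values of 1 member are not reported here, though it is included in the counts, sums and medians.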

Additional observations from a re-analysis of the deposited data

How the results depend on the processing

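With no filter on low values, and with no intensity trend, 0 members were called (20 and 14 at an unadjusted p under 0.05), 0 other machinery genes in either direction, and over all tested genes 0 and 1 higher and 0 and 0 lower (5655 and 4337 unadjusted). Leaving out 1 library, which leaves a lone sample assumed to vary like the other group, gave 0 members and 0 other machinery genes called in either direction, and 0 to 10 genes higher and 0 to 5 lower over all tested genes (13 to 18 members and 3367 to 4035 genes unadjusted). The members called higher and lower were 3 and 9 at a minimum mean of 5 TPM, where 5 other machinery genes were called lower, and 2 and 4 after GC and length correction, with or without the block. With that correction and the replicate block together, 7 other machinery genes were called higher.

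The replicate numbers do not pair the libraries in the labels, and deviations of same-numbered libraries correlated at 0.03. With the replicate block 2 members were called higher and 8 lower, adding POLR2L and POLR3E, and 2442 of all tested genes were called.

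Over the analyses that leave out 1 library, the median fold change was -0.15 to -0.079 for polymerase I, -0.17 to -0.034 for polymerase II, -0.21 to -0.064 for polymerase III and -0.25 to -0.14 for the fully shared subunits. After GC and length correction, with or without the block, the last was -0.13 and that of the pair shared by I and III -0.0095 (0.0020 under quantile normalization).

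Uncalled genes near 0 changed sign. Over the analyses that leave out 1 library, POLR1H ranged from -0.16 to 0.099 (0.029 without Flag replicate 2), POLR2K from -0.0071 to 0.16, POLR2M from -0.29 to 0.075, POLR3B from -0.034 to 0.11 (-0.0040 without Flag replicate 1) and POLR3D from -0.21 to 0.21 (-0.06 without RNase H1 replicate 2). GC and length correction, with or without the block, gave -0.012 for POLR2K and -0.011 for POLR3B. POLR3D was -0.0014 with a pseudocount of 5 and -0.0076 under median-of-ratios scaling. Of the other results for single members, 434 kept sign and call, 53 lost the call and 7 gained it. The causes were not tested, and the unknown depth limits all counts.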
